A study of Mus musculus with 6 samples.

Results

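The 9 integrin chain genes described here were followed in regulatory T cells (Tregs) of the bone marrow (BM), 5 alpha chains (Itga4, Itga6, Itgal, Itgae and Itgav) and 4 beta chains (Itgb1, Itgb2, Itgb3 and Itgb7). They are 9 of the 36930 features in the deposited tables and 9 of the 13923 genes tested. The set was chosen from integrin chains of T cells with the difference between CML and naive mice in these same libraries already known. That difference is therefore given for the 9 genes as a description, with no test. The values were read as RPKM, that is, reads scaled to the length of the transcript and to the number of mapped reads. This unit is not named in the sources used here and was inferred from the values. Setting levels of different genes side by side rests on it.

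The study asked how Tregs of the BM differ between mice with chronic myeloid leukemia (CML) and mice without leukemia. All 6 mice carried the Foxp3-DTR-GFP allele, in which the Foxp3 locus, active in Tregs, drives the human diphtheria toxin receptor and GFP, and all were at post natal week 8. CML Tregs came from 3 nonirradiated syngeneic mice given, intravenously, stem and progenitor cells (LSKs, lineage-negative Sca-1+ c-Kit+ cells) transduced with a BCR-ABL1-GFP retrovirus. Leukemic cells in this model thus carry GFP as the Tregs do. Naive Tregs came from 3 mice without leukemia. Tregs were purified by FACS, and each library is 1 mouse.

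An integrin is a pair of 1 alpha and 1 beta chain that spans the plasma membrane. Inside-out signaling through the GTPase Rap1, talin and kindlin switches it to a form that binds ligand, and the bound integrin then signals into the cell. In T cells, LFA-1 (Itgal with Itgb2) binds ICAMs, VLA-4 (Itga4 with Itgb1) binds VCAM-1 and fibronectin, and Itga4 with Itgb7 binds MAdCAM-1. VLA-6 (Itga6 with Itgb1) binds laminin, CD103 (Itgae with Itgb7) binds E-cadherin, and Itgav with Itgb3 or Itgb8 binds RGD-containing ligands, among them latent TGF-β. In the BM, VLA-4 and VCAM-1 hold hematopoietic cells and lymphocytes in place.

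The libraries differed in depth. The estimated number of reads was 829181 to 7613827 in the 3 CML libraries and 5187987 to 9751911 in the 3 naive libraries. CML replicate 2 was the shallowest and stood apart, with 50.7% of its summed RPKM in its 10 highest features, against 28.5% to 31.3% in the other 5 libraries. All 11 T cell and Treg markers were present in every library, and Foxp3 was at 299 to 468 RPKM in CML and 297 to 367 RPKM in naive Tregs. The 14 neutrophil and myeloid markers summed to 25.9, 227 and 239 RPKM in CML replicates 1, 2 and 3 and to 41.8 to 63.6 RPKM in naive libraries. The erythroid markers summed to 41.8 to 253 RPKM and to 5.93 to 31.6 RPKM, respectively. The part of erythroid RNA in the differences given here was not tested.

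The RefSeq promoter table held 4 of the 9 chains, Itgb1, Itga4, Itgav and Itgb7. The 250 bases before the annotated start are shown for the chains that were lower in CML (Itgb1 and Itga4) and for Itgav, which was higher, so that the DNA next to the start of each gene can be read beside its RNA. All 3 lie on the plus strand of GRCm38.p6 and are written 5′ to 3′. Capitals mark matches on either strand to a GC box (GGGCGG), a KLF core (CACCC) or a RUNX core (TGTGGT). An ETS core (CCGGAAG) was searched for too and had no match in the 3 windows.
Itgb1, chr8:128685404-128685653: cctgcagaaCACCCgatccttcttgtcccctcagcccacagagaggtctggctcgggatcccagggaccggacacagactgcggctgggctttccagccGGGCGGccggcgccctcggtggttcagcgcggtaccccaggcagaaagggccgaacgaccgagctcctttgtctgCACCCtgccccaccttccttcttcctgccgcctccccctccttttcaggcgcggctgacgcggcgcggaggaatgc
Itga4, chr2:79255176-79255425: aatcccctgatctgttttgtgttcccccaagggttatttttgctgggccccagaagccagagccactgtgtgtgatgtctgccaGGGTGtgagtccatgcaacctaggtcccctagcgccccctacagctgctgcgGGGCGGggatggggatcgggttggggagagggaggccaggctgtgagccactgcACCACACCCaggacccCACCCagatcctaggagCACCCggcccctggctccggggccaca
Itgav, chr2:83724147-83724396: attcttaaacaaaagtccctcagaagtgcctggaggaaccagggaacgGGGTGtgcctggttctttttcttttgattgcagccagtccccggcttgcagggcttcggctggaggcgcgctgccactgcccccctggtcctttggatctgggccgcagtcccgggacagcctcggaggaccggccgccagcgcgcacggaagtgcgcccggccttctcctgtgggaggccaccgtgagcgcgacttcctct

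The Itgb1 window held 1 GC box and 2 KLF cores at 68% GC. The Itga4 window held 1 GC box, 4 KLF cores and 1 RUNX core at 64% GC, and its RUNX core overlaps a KLF core in the run ACCACACCC. The Itgav window held 1 KLF core and no other match at 64.4% GC. The window of Itgb7, whose groups overlapped, is not printed and held 4 KLF cores and no other match at 56% GC. Such letters are common. Of all 32851 upstream windows of the same length, 52.0% held a KLF core, 32.7% a GC box, 14.05% a RUNX core and 6.91% an ETS core, and the median GC content was 52.4%. The matches describe the sequence and say nothing of a factor bound there.

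In CML Tregs, 3 of the 9 chains were lower in every library than in every naive library (Itgb1, Itga4 and Itga6), 3 were higher (Itgb2, Itgav and Itgb3), and the groups overlapped for 3 (Itgal, Itgae and Itgb7). Of all 13923 genes tested, 4.84% were higher and 12.2% were lower in every CML library, and the split depends on scaling, with 8.88% and 9.12% after quantile normalization. Since the 9 chains were chosen on this contrast, nothing is read from that background. The median log2 fold change over all genes was −0.18 and moved to −0.0068 after quantile normalization. The same 3 lower and 3 higher chains did not overlap under the 3 other scalings run, while the other alternatives, which keep the order of the libraries or leave 1 out, cannot make separate groups overlap. In BM Tregs, fewer cells with a chain and less RNA of it per cell cannot be told apart.

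**Figure D1:**
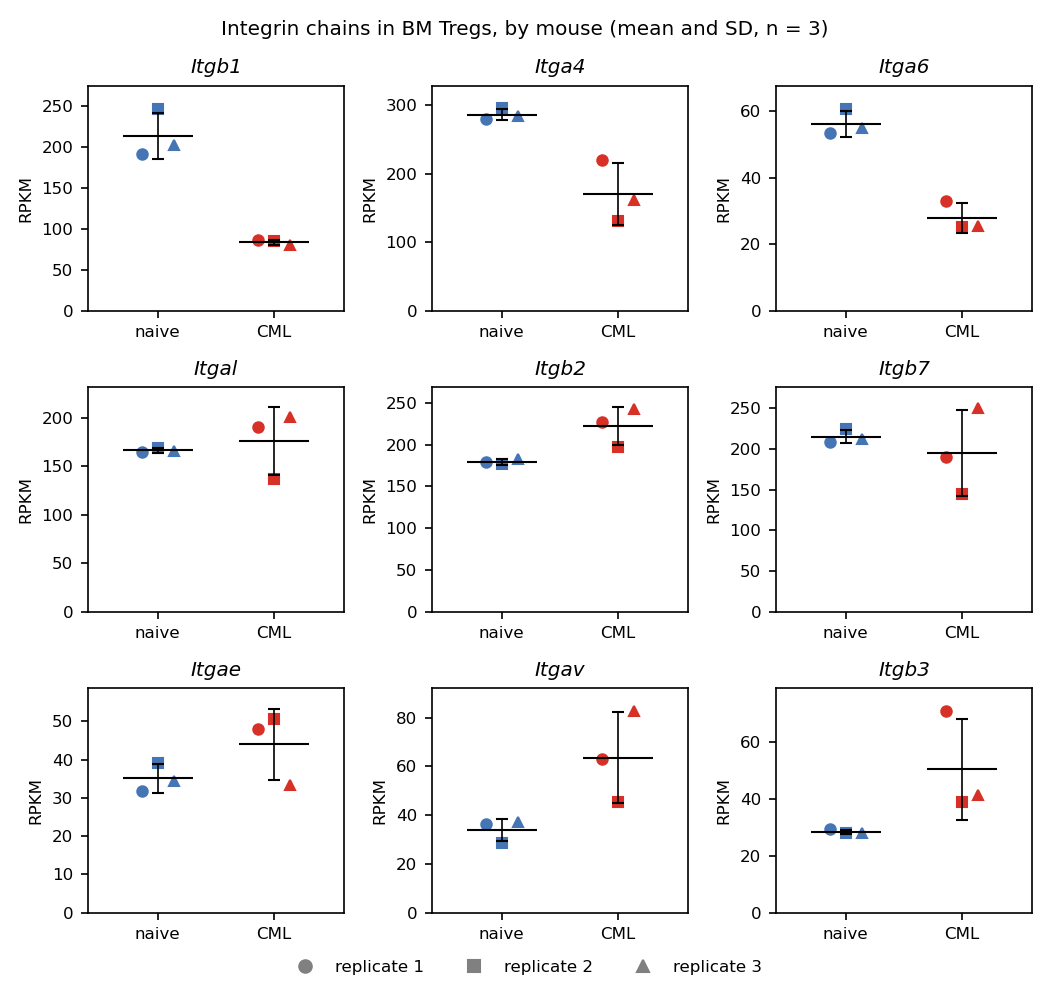
RPKM of the 9 integrin chains (vertical axis, from 0) in BM Tregs of naive mice (blue) and CML mice (red), with 1 point per mouse, a horizontal line at the group mean and a bar of 1 SD (n = 3). The CML points of Itgb1, Itga4 and Itga6 lie below every naive point, those of Itgb2, Itgav and Itgb3 lie above every naive point, and the points of Itgal, Itgb7 and Itgae overlap.

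The beta 1 chain and its alpha partners Itga4 and Itga6 were all lower in CML. Itgb1 (chr8:128685654-128733200, plus strand, GRCm38), the beta chain shared by the VLA integrins, was at 85.8, 84.5 and 79.7 RPKM in CML replicates 1, 2 and 3 and at 192, 246 and 202 RPKM in naive replicates 1, 2 and 3. The 3 CML libraries lay close together and all below the lowest naive library. The means were 83.4 ± 3.20 RPKM in CML and 213 ± 28.6 RPKM in naive Tregs (SD, n = 3 each), a level 2.56-fold higher in naive Tregs. The log2 fold change, CML minus naive on the log2(RPKM + 1) scale, was −1.34 (SE 0.16), the lowest of the 9 chains, and 5.46% of all genes tested had a lower or equal one. It ranged from −1.41 to −1.21 over the alternatives.

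Itga4 (chr2:79255426-79333123, plus strand), the alpha chain of VLA-4 and of the gut-homing integrin with Itgb7, was at 220.1, 131 and 161 RPKM in CML and at 279.6, 296 and 285 RPKM in naive replicates 1, 2 and 3. CML replicate 1 was nearest to the naive libraries, yet below all of them. The means were 171 ± 45.4 and 287 ± 8.14 RPKM (SD, n = 3), with a log2 fold change of −0.78 (SE 0.20). The end of Itga4 overlaps the gene Cerkl on the other strand, which was at 37.2, 22.9 and 28.2 RPKM in CML and at 47.3, 48.4 and 41.5 RPKM in naive libraries. Whether reads were counted by strand is not given in the sources used here, so reads of Itga4 and Cerkl from the shared bases cannot be told apart.

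Itga6 (chr2:71745616-71858416, plus strand), the laminin-binding alpha chain of VLA-6, was at 32.9, 25.1 and 25.5 RPKM in CML and at 53.3, 60.7 and 54.8 RPKM in naive replicates 1, 2 and 3. The groups were well apart, with means of 27.8 ± 4.41 and 56.3 ± 3.91 RPKM (SD, n = 3), 2.02-fold higher in naive Tregs. On the log2 scale the fold change was −1.0 (SE 0.20). The genes Gm13663 and Gm13662 on the same strand and Gm17250 and Gm13739 on the other overlap Itga6. Reads of the shared bases cannot be told apart. Itga6 had the fewest reads of the 9 chains in the shallowest library, an estimated 90 in CML replicate 2, for which the 95% Poisson interval is 20.2 to 30.9 RPKM, below every naive value. Such intervals cover counting error only, since amplification copies molecules and no molecular identifiers were read. Relative to the median gene, the 3 lower chains were at −1.16 (Itgb1), −0.82 (Itga6) and −0.60 (Itga4) on the log2 scale.

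The RGD-binding chains Itgav and Itgb3 were both higher in CML. Itgav (chr2:83724397-83806916, plus strand), an alpha chain that pairs with several beta chains, was at 62.9, 45.4 and 82.6 RPKM in CML and at 36.2, 28.7 and 37.0 RPKM in naive replicates 1, 2 and 3. CML replicate 2 had the lowest of the 3 CML values and was still above the highest naive one. The means were 63.6 ± 18.6 and 34.0 ± 4.6 RPKM (SD, n = 3), 1.87-fold higher in CML, with a log2 fold change of 0.85 (SE 0.26). Its range over the alternatives was 0.65 to 1.07. The genes Gm13684 and Dnmt3l-ps1 overlap Itgav on the other strand, and reads of the shared bases cannot be told apart.

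Itgb3 (chr11:104608000-104670476, plus strand), the beta chain of the vitronectin receptor and, with Itga2b, of the platelet fibrinogen receptor, was at 71.0, 39.1 and 41.4 RPKM in CML and at 29.4, 27.9 and 28.0 RPKM in naive replicates 1, 2 and 3. The naive libraries were nearly equal, and CML replicate 1 stood well above the other 2 CML libraries. The means were 50.5 ± 17.8 and 28.4 ± 0.813 RPKM (SD, n = 3), with a log2 fold change of 0.76 (SE 0.26). It ranged from 0.49 to 0.99 over the alternatives and was lowest without CML replicate 1. Of the 10 platelet markers, 3 (Ppbp, Gp1bb and Treml1) were at 0 in all 6 libraries. The 9 other than Itga2b summed to 1.09 to 2.14 RPKM in CML and to 1.68 to 11.5 RPKM in naive libraries, low values with overlapping groups. With Itga2b, all 10 summed to 1.09 to 2.85 RPKM in CML and to 3.36 to 11.6 RPKM in naive libraries, lower in every CML library. The part of platelet RNA in the values of Itgb3 was not tested. Itga2b, the platelet partner of Itgb3, was at 0.677, 0 and 0.705 RPKM in CML and at 1.99, 0.147 and 0.298 RPKM in naive replicates 1, 2 and 3.

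LFA-1 showed its beta chain but not its alpha chain apart between the groups. Itgb2 (chr10:77530252-77565708, plus strand), the beta chain of all leukocyte-specific beta 2 integrins, was at 227, 197 and 243 RPKM in CML and at 179, 176 and 183 RPKM in naive replicates 1, 2 and 3. All 3 CML libraries were above the naive ones. The means were 222 ± 23.2 and 179 ± 3.48 RPKM (SD, n = 3), 1.24-fold higher in CML, with a log2 fold change of 0.30 (SE 0.14). Neutrophils and other myeloid cells also carry Itgb2. The summed neutrophil and myeloid markers were at 25.9, 227 and 239 RPKM in CML replicates 1, 2 and 3 beside these Itgb2 values, and their part in the values of Itgb2 was not tested.

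Itgal (chr7:127296260-127335138, plus strand), the alpha chain of LFA-1, was at 191, 136 and 201 RPKM in CML and at 164, 169 and 166 RPKM in naive replicates 1, 2 and 3. CML replicate 2 lay below the naive libraries and the other 2 CML libraries above them, so the groups overlapped. The means were 176 ± 34.7 and 166 ± 2.29 RPKM (SD, n = 3), and the log2 fold change was 0.06 (SE 0.18), with either sign over the alternatives (−0.04 to 0.23). Without CML replicate 2 the groups no longer overlapped (higher in CML), nor did they after median-of-ratios scaling with all 6 libraries.

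The epithelial and gut homing chains overlapped between groups too. Itgb7 (chr15:102215995-102231944, minus strand), the beta chain that pairs with Itga4 or Itgae, was at 189.7, 145 and 250.1 RPKM in CML and at 209, 224 and 212 RPKM in naive replicates 1, 2 and 3. The CML libraries lay on both sides of the naive ones, and the log2 fold change of −0.18 (SE 0.21) equalled that of the median gene to 2 decimals. Itgae (chr11:73090583-73147446, plus strand), known as CD103, was at 47.9, 50.6 and 33.5 RPKM in CML and at 31.7, 39.0 and 34.4 RPKM in naive replicates 1, 2 and 3. CML replicate 3 lay within the naive range, and the log2 fold change was 0.30 (SE 0.23). CD8 T cells and dendritic cells carry Itgae as well. The CD8 T cell and NK cell markers summed to 51.8 to 84.9 RPKM in CML and to 28.1 to 66.5 RPKM in naive libraries. The monocyte and dendritic cell markers summed to 168 to 173 and to 123 to 295 RPKM. Most of the latter sum was Siglech (129 to 144 and 91.9 to 222 RPKM). Clec9a was at 13.3 ± 9.32 and 26.4 ± 7.15 RPKM, Clec10a at 19.1 ± 15.7 and 18.9 ± 13.9 RPKM (SD, n = 3), and Xcr1 had no reads. The part of these cells in the values of Itgae was not tested. Without CML replicate 3, Itgae no longer overlapped (higher in CML) and neither did Itgb7 (lower in CML). The gene Haspin (named Gsg2 in the tables) lies inside Itgae on the other strand and was at 6.04 to 14.9 RPKM, and reads of the shared bases cannot be told apart.

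**Figure D2:**
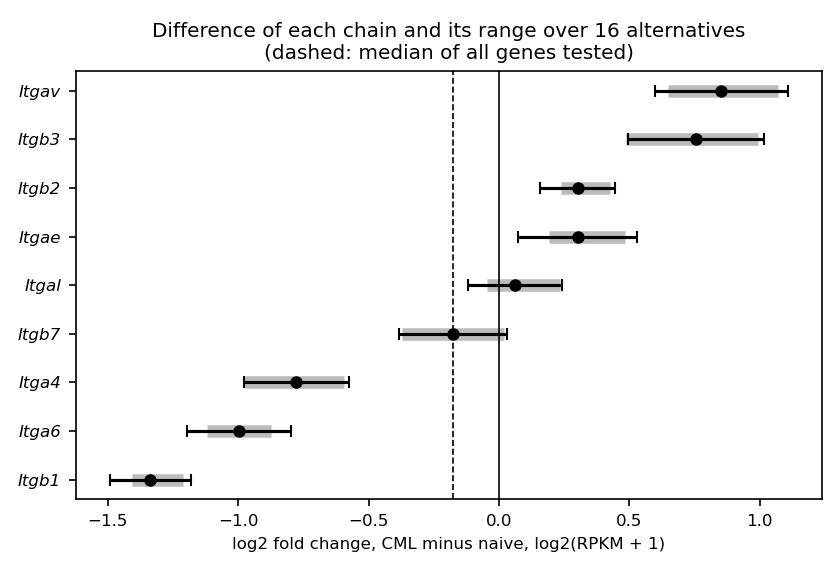
Log2 fold change of each chain, CML minus naive on the log2(RPKM + 1) scale (horizontal axis), as a point with a bar of 1 SE, over a gray band from the lowest to the highest value of 16 alternative settings. The dashed line is the median of all genes tested (−0.18). The bands of Itgb1, Itga6 and Itga4 lie below the dashed line, those of Itgb2, Itgae, Itgav and Itgb3 lie above 0, and those of Itgal and Itgb7 cross 0.

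The order of the levels differed between the groups as a description. In naive Tregs, Itga4 was the most abundant chain (287 RPKM), followed by Itgb7 (215 RPKM), Itgb1 (213 RPKM), Itgb2 (179 RPKM), Itgal (166 RPKM) and, well below, Itga6 (56.3 RPKM), Itgae (35.1 RPKM), Itgav (34.0 RPKM) and Itgb3 (28.4 RPKM). Of neighbors in this order, Itgb7 and Itgb1, Itgae and Itgav, and Itgav and Itgb3 had overlapping ranges over the 3 mice. In CML Tregs the first 4 were Itgb2 (222 RPKM), Itgb7 (195 RPKM), Itgal (176 RPKM) and Itga4 (171 RPKM), each overlapping the next in range. Itgb1 (83.4 RPKM) came next, below all of these in every mouse, then Itgav (63.6 RPKM), Itgb3 (50.5 RPKM) and Itgae (44.0 RPKM), again overlapping from one to the next, and Itga6 was last (27.8 RPKM), below Itgae in every mouse.

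A share within the chains of a library does not depend on the factor by which that library was scaled. Itgb1 made up 14.96%, 18.2% and 13.0% of the summed RPKM of the 4 beta chains in CML replicates 1, 2 and 3 and 31.5%, 36.4% and 32.3% in naive replicates 1, 2 and 3. The share of Itgb2 was 40.5% ± 1.60 in CML and 28.3% ± 1.82 in naive Tregs, and that of Itgb3 was 9.17% ± 2.89 and 4.48% ± 0.344 (SD, n = 3). Both were higher in every CML library. Itgb7 held 35.0% ± 5.08 and 33.8% ± 0.531, with overlapping groups.

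Among the 5 alpha chains, Itga4 held 35.1% ± 4.04 of the summed RPKM in CML and 49.6% ± 0.262 in naive Tregs, and Itga6 held 5.83% ± 0.713 and 9.73% ± 0.448 (SD, n = 3). Both shares were lower in every CML library. The shares of Itgav (13.2% ± 2.83 and 5.89% ± 0.908), Itgal (36.5% ± 2.98 and 28.8% ± 0.296) and Itgae (9.44% ± 3.27 and 6.06% ± 0.489) were higher in every CML library. Shares of a sum move against one another, so a lower Itga4 by itself makes the shares of the other alpha chains higher, and the levels of Itgal and Itgae overlapped. The 9 chains together summed to 1033 ± 155 RPKM in CML and 1214 ± 47.9 RPKM in naive Tregs, and CML replicate 2 had the lowest sum (854 RPKM).

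**Figure D3:**
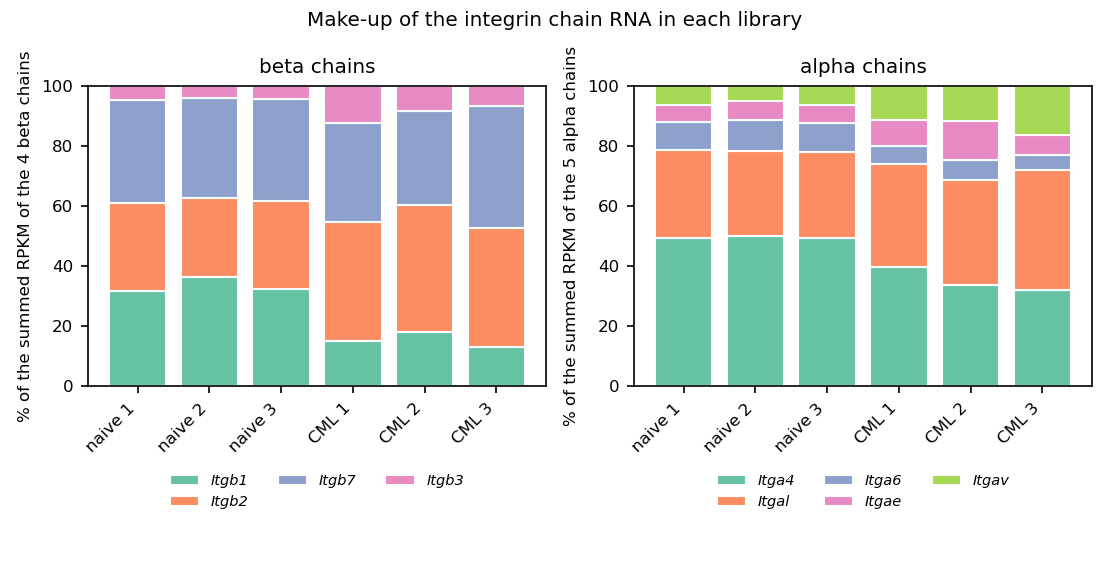
Share of each chain in percent of the summed RPKM of the 4 beta chains (left) and of the 5 alpha chains (right), with 1 stacked bar per library and 3 libraries per group. Itgb1 takes 31.5% to 36.4% of the beta chains in the naive bars and 13.0% to 18.2% in the CML bars, and Itga4 takes 49.4% to 49.9% and 32.0% to 39.7% of the alpha chains.

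The ratio of partner chains shows how evenly both sides of an integrin differed. Itga4 to Itgb1, the VLA-4 pair, was 2.56, 1.55 and 2.02 in CML and 1.46, 1.20 and 1.41 in naive replicates 1, 2 and 3, so Itga4 stood higher over Itgb1 in every CML library although both chains were lower. Itga6 to Itgb1, the VLA-6 pair, was also higher in every CML library (0.334 ± 0.0449 against 0.265 ± 0.0162, SD, n = 3). Itga4 to Itgb7 was lower in every CML library, at 0.902 ± 0.258 against 1.33 ± 0.0142, and Itgal to Itgb2, the LFA-1 pair, likewise, at 0.786 ± 0.0823 against 0.927 ± 0.0265. The ratios of Itgae to Itgb7 (0.245 ± 0.108 and 0.163 ± 0.0110) and of Itgav to Itgb3 (1.35 ± 0.576 and 1.19 ± 0.150) overlapped between the groups.

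Ratios to Itgb1 of chains that were higher or overlapped in CML differed more between the groups than the 6 ratios above. Itgb1 had the lowest log2 fold change of the chains followed (−1.34). A lower Itgb1 by itself makes such ratios higher in CML, so their larger difference is not a separate result and they are given as a description. Itgb2 was 2.67 ± 0.356 times the level of Itgb1 in CML and 0.852 ± 0.116 times in naive Tregs (SD, n = 3), so in naive Tregs Itgb1 was the more abundant and in CML Itgb2 was. Itgb7 to Itgb1 went from 1.02 ± 0.0920 in naive Tregs to 2.35 ± 0.721 in CML. Itgav to Itgb1 was 0.769 ± 0.251 in CML and 0.163 ± 0.0401 in naive Tregs, and Itgb3 to Itgb1 was 0.603 ± 0.196 and 0.135 ± 0.0200. RNA ratios of this kind do not give the amount of paired protein at the surface.

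**Figure D4:**
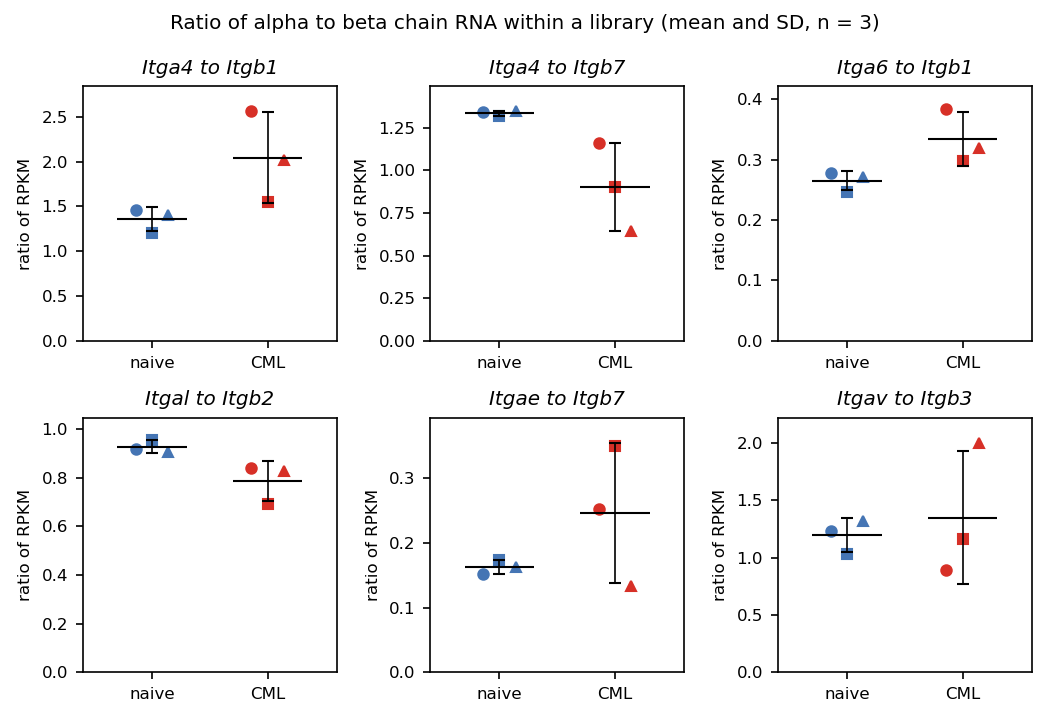
Ratio of the RPKM of an alpha chain to that of a beta chain it pairs with (vertical axis, from 0, no unit), within each library, with 1 point per mouse in naive (blue) and CML (red) Tregs, replicates 1, 2 and 3 as circle, square and triangle, a line at the mean and a bar of 1 SD (n = 3). The ratios of Itga4 and Itga6 to Itgb1 are higher and those of Itga4 to Itgb7 and Itgal to Itgb2 are lower in every CML library, and those of Itgae to Itgb7 and Itgav to Itgb3 overlap.

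The chains were compared over the 6 libraries as well. Pearson r of log2(RPKM + 1) for chains that pair was 0.98 for Itgb1 and Itga6, 0.88 for Itgb1 and Itga4, 0.73 for Itgav and Itgb3, 0.63 for Itgal and Itgb2, 0.49 for Itga4 and Itgb7 and −0.79 for Itgae and Itgb7. Chains that do not pair could be as alike, with r 0.96 for Itga4 and Itga6 and 0.98 for Itgb2 and Itgav. All of these r share the same 6 libraries and the difference between the groups. Among 7852 genes that averaged 10 RPKM or more, the pattern most like that of Itgb1 was found in Mir6992 (r 0.995) and Mir15b (0.992), both microRNA genes with no reads in any CML library. For Itga6 it was Chd2 (0.997) and Elk4 (0.995), for Itga4 Birc6 (0.993) and Rrp15 (0.992), and for Itgb2 Chst2 (0.999) and Hist1h2ah (0.992). Itgav was followed by Trav14n-3 (0.995) and Ctdspl2 (0.993), Itgal by Zfp935 (0.994) and Ptplad1 (0.994), Itgb7 by Jade1 (0.996) and Mrps25 (0.994), and Itgae by LOC105245353 (0.993) and Taf9 (0.979). Itgb3 had the least similar neighbors, Rab10 (0.970) and Mmd (0.969). Picking the highest of 7852 r over only 6 libraries favors high values, so no link between these genes is read from them.

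Of the other 18 integrin chains of the mouse, 8 averaged 1 RPKM or more and were tested, and none passed limma's test over all genes (adjusted p under 0.05 and a fold of at least 1.5), by which 0.172% of all genes were called. At an unadjusted p under 0.05 there was 1 of the 8, while 9.68% of all genes passed. It was Itgb8, the beta chain with which Itgav activates latent TGF-β, at 33.2, 21.5 and 30.0 RPKM in CML and at 12.3, 17.0 and 13.0 RPKM in naive replicates 1, 2 and 3. Every CML library was above every naive one, with a log2 fold change of 0.94 (SE 0.28) and an adjusted p of 0.320 by limma, and the adjusted p ranged from 0.164 to 0.814 over the alternatives. Itgb8 lay below Itgb3 in each of the 6 libraries, and the ratio of Itgav to Itgb8 overlapped between the groups (2.25 ± 0.447 and 2.49 ± 0.696, SD, n = 3).

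The remaining 7 tested chains stayed under 9 RPKM in every library, and their groups overlapped. The collagen receptor chain Itga2 was at 7.12 ± 1.30 RPKM in CML and 6.29 ± 1.19 RPKM in naive Tregs (SD, n = 3), with a log2 fold change of 0.16. Itga1, the other collagen receptor chain, was at 0.894 ± 0.872 and 1.38 ± 0.546 RPKM. The laminin-binding Itga3 and Itga7 had log2 fold changes of 0.75 and −0.89, and the fibronectin receptor chain Itga5 one of 0.44. The adjusted p of these 5 genes by limma were between 0.688 and 0.902. The myeloid chains Itgam (0.83, adjusted p 0.671) and Itgax (−0.02, adjusted p 0.990), partners of Itgb2 in myeloid cells, were low in both groups, with Itgam at 1.57, 5.72 and 1.71 RPKM in CML and at 0.970, 0.541 and 1.77 RPKM in naive replicates 1, 2 and 3.

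Genes that switch integrins on or link them to the cytoskeleton were taken as a list of 49, of which 42 were tested. None was called by limma over all genes. At an unadjusted p under 0.05 there were 9 (21.4%, against 9.68% of all genes), 3 of them higher and 6 lower in CML. The groups did not overlap for 3 higher genes (7.14%) and 12 lower genes (28.6%), against 4.84% and 12.2% of all genes. The median log2 fold change of the list was −0.18, that of all genes also −0.18. The list was chosen with earlier results of these data known, so nothing is read from these shares. Among the adaptors of inside-out signaling, talin (Tln1, 210.1 ± 22.2 and 209 ± 9.60 RPKM) and kindlin-3 (Fermt3, 123 ± 23.0 and 131 ± 9.01 RPKM) overlapped between the groups (SD, n = 3). The 12 genes lower in every CML library were Rasgrp2, Rap1gap2, Cd9, Fyb, Apbb1ip, Rasgrp1, Rassf5, Skap1, Stk4, Flna, Lims1 and Pxn.

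Rasgrp2 (CalDAG-GEFI), an exchange factor that loads Rap1 with GTP, was at 31.8, 18.6 and 36.2 RPKM in CML and at 60.7, 77.8 and 63.5 RPKM in naive replicates 1, 2 and 3. The groups were apart, with a log2 fold change of −1.24 (SE 0.28, limma adjusted p 0.218). Rap1gap2, which turns Rap1 off, was at 3.28 ± 0.804 RPKM in CML and 12.9 ± 2.96 RPKM in naive Tregs (SD, n = 3), a log2 fold change of −1.69 (SE 0.38, limma adjusted p 0.226). The exchange factor Rapgef1 overlapped between the groups, at 80.2 ± 16.2 and 94.4 ± 2.79 RPKM. So did Sipa1, which also turns Rap1 off and was far more abundant than Rap1gap2, at 85.5 ± 14.8 and 70.3 ± 9.0 RPKM. Of the same list, Rasgrp1 (99.7 ± 1.49 and 112 ± 3.22 RPKM), Rassf5 (145 ± 3.92 and 162 ± 4.15 RPKM) and Apbb1ip (113 ± 8.04 and 163 ± 14.5 RPKM) were lower in every CML library. Rap1b itself was at 312 ± 7.50 and 246 ± 10.8 RPKM, higher in every CML library by a log2 difference of 0.34 (SE 0.13, limma adjusted p 0.458).

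Cd9, a tetraspanin that associates with integrins, was at 1.54, 10.6 and 1.93 RPKM in CML and at 12.5, 13.1 and 14.2 RPKM in naive replicates 1, 2 and 3. CML replicate 2 was near the naive libraries and the other 2 were far below (log2 fold change −1.68, SE 0.60, limma adjusted p 0.433). Nedd9 (Cas-L), a docking protein phosphorylated after beta 1 integrin binding, was at 79.6 ± 13.4 RPKM in CML and 49.0 ± 7.63 RPKM in naive ones (log2 fold change 0.69, SE 0.21, limma adjusted p 0.347). Adap1 was at 51.3 ± 12.1 and 26.3 ± 6.35 RPKM (log2 fold change 0.94, SE 0.27, limma adjusted p 0.308). Adap1 encodes an Arf GTPase-activating protein and shares only a name with the integrin adaptor ADAP. It is still counted among the 3 higher genes of the list. ADAP is the product of Fyb, which was at 404 ± 83.8 and 517 ± 29.7 RPKM and lower in every CML library.

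Of 43 genes for integrin ligands, 15 were tested and none was called by limma over all genes, while 3 had an unadjusted p under 0.05, 1 higher and 2 lower. The groups did not overlap for 2 higher genes (13.3%) and 2 lower genes (13.3%), against 4.84% and 12.2% of all genes. The median log2 fold change was −0.0038. This list too was chosen with earlier results of these data known, so nothing is read from these shares. Pecam1, an adhesion molecule for which Itgav with Itgb3 is a partner, was at 26.2, 24.7 and 38.4 RPKM in CML and at 74.4, 95.6 and 62.7 RPKM in naive replicates 1, 2 and 3. All CML libraries were below all naive ones (log2 fold change −1.36, SE 0.25, limma adjusted p 0.125), and the adjusted p ranged from 0.0552 to 0.547 over the alternatives. Icam2, a ligand of LFA-1, was at 14.1 ± 3.85 RPKM in CML and 31.9 ± 7.31 RPKM in naive Tregs (SD, n = 3), with a log2 fold change of −1.13 (SE 0.30, limma adjusted p 0.280).

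Both higher genes of the ligand list bear on integrins discussed above, Lrrc32 through the latent TGF-β that it holds and not as a ligand itself. Lamc1, a laminin chain, was at 53.0, 32.5 and 65.7 RPKM in CML and at 20.8, 21.1 and 30.4 RPKM in naive replicates 1, 2 and 3. The lowest CML value lay just above the highest naive one (log2 fold change 1.0, SE 0.30, limma adjusted p 0.346). Lrrc32 (GARP), which holds latent TGF-β on the surface of Tregs where Itgav with Itgb8 can release it, was at 31.6 ± 1.09 and 22.5 ± 5.84 RPKM (SD, n = 3; log2 fold change 0.50, SE 0.26, limma adjusted p 0.575). Naive replicate 3 (15.8 RPKM) lay well below naive replicates 1 and 2 (26.3 and 25.5 RPKM), and without it the log2 fold change of Lrrc32 was 0.28. Tgfb1 was at 82.9 ± 6.96 and 83.0 ± 3.16 RPKM, with overlapping groups.

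**Figure D5:**
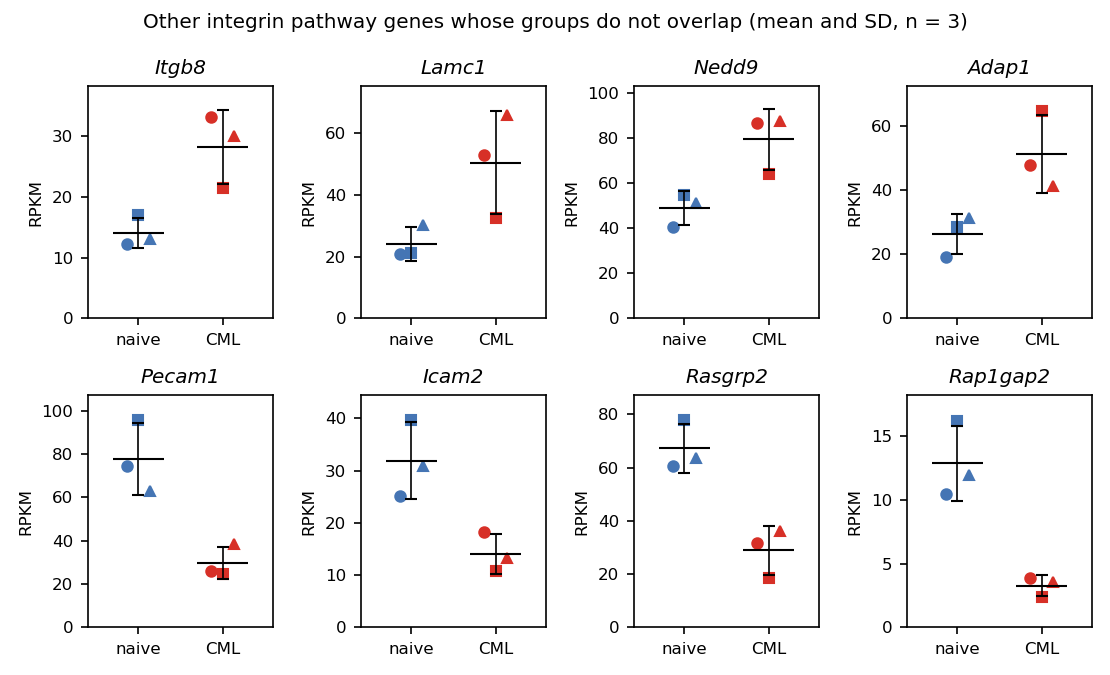
RPKM (vertical axis, from 0) of 8 other genes of the lists described here whose groups did not overlap. Each point is 1 mouse in naive (blue) or CML (red) Tregs, with replicates 1, 2 and 3 as circle, square and triangle. A line marks the mean and a bar 1 SD (n = 3). Adap1 is in the list of activation and adaptor genes but shares only a name with the integrin adaptor ADAP. Itgb8, Lamc1, Nedd9 and Adap1 are higher and Pecam1, Icam2, Rasgrp2 and Rap1gap2 are lower in every CML library, and none passed limma's test over all genes.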

How the data were processed

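RNA of FACS-purified BM Tregs was extracted with the RNeasy Micro kit, made into SMART-Seq v4 libraries and sequenced single-end on a NextSeq instrument. The authors assembled reads in SeqMan NGen version 15 and analyzed them in ArrayStar version 15, against GRCm38 (mm10) per the labels, with DESeq2 for their own calls. The deposited values, 1 per feature and library, were read as RPKM. The unit is not named in the sources used here and was taken from the values. Products of value and length of microRNA and small nucleolar RNA features fell on whole steps more often than by chance. The share within 0.05 of a whole step was 30.7% to 59.8%, against 10% by chance. The integrin chains were not part of that check. The reads per library follow from those steps and are estimates. A value of 0.001, which marks no reads, was set to 0, and rows that share a name (41 names) were kept as separate features. None of the genes listed here is among them.

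Groups and replicate numbers came from the sample titles. Values were compared as log2(RPKM + 1) in limma 3.58.1 (R 4.3.3) with a trended variance, over all genes that averaged 1 RPKM or more, with Benjamini-Hochberg adjustment, and a call needed an adjusted p under 0.05 and a fold of at least 1.5. The procedure was tested on simulated data. With 3 against 3 samples an exact permutation test cannot reach 0.05, so none was run. The members and the gene lists were chosen with earlier results of these data known. Outside the 9 chains, genes were named by rule: other chains averaging 1 RPKM or more, in each list the 3 largest increases and 3 largest decreases whose groups did not overlap, and for each chain the 2 genes with the highest r. Tln1, Fermt3, Fyb, Rapgef1, Sipa1, Tgfb1 and Itga2b were named beside these after their values were seen. So were Apbb1ip, Rasgrp1, Rassf5, Skap1, Stk4, Flna, Lims1 and Pxn, and the markers Siglech, Clec9a, Clec10a and Xcr1. No sequencing batch is given in the labels. Alternatives were the pseudocount, the filter, scaling, the variance model, library weights, a replicate block and leaving out each library. Gene positions are from GENCODE M21, upstream sequences from RefSeq (GRCm38.p6). Python 3.11.15 was used for the tables.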

Additional observations from a re-analysis of the deposited data

How the results depend on the processing

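The count of genes called over all genes (24) depended on the settings. It was 3 with no filter on low values, 53 after quantile normalization and also when libraries were set to 1 common 75th percentile, 46 with median-of-ratios scaling, 11 in eBayes without a trend, 45 with library weights and 0 to 29 when 1 library was left out (0 without naive replicate 1 or 2, 3 without naive replicate 3, 8 without CML replicate 3). With a replicate block it was 1. The block was not used, because same-numbered libraries come from different mice and did not deviate together (correlations −0.0048, −0.0016 and −0.019). In the lists of other chains, activation and adaptor genes and ligands, 0 genes were called by limma in any of the 16 alternatives. The log2 fold change of Itgb2 was 0.30 and moved to 0.43 with median-of-ratios scaling. With a pseudocount of 5, the log2 fold changes of Rap1gap2 and Cd9 were −1.10 and −1.03 (−1.69 and −1.68 as reported). The log2 fold changes of Itga1, Itgal, Itgax and Itgb7 and the ratio of Itgav to Itgb3, all with overlapping groups, took either sign over the alternatives, and the other log2 fold changes and partner ratios kept theirs. Without CML replicate 2, 4 chains were higher and 3 lower in every CML library, and without CML replicate 3, 4 and 4. The cause of these changes was not tested. Depth limits the chains most in CML replicate 2, where estimated reads were 90 for Itga6, 161 for Itgae and 187 for Itgb3.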
